A study of Mus musculus with 8 samples.

Results

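*Megf10*, *Daam2*, *Pcdh18*, *Dach1*, *Ptn*, *Itga8* and *Anxa1* are 7 genes whose array signal was far lower in *L3mbtl2*-knockdown (KD) mouse embryonic stem cells (ESCs) than in control ESCs. They were selected on that measured difference. Named genes were ranked by the largest fall of any of their probes, among genes past the threshold given further on whose groups did not overlap, leaving out clone names. The first 10 genes of the ranking were taken, and *Dcn*, *Col3a1* and *Thbs1*, which encode extracellular matrix proteins, were set aside. The remaining 7 are 7 of 19751 genes named on the arrays. The last gene inside the ranking was *Anxa1*, with a log2 difference of -3.51 for the probe that ranked it, and the first outside was *Cubn*, with -3.38. Since the choice used this same contrast, all values of the 7 genes are given as a description with no test.

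The arrays measured RNA of VV3 ESCs, a male mouse ESC line that carries a *Vasa*::Venus transgene, a fluorescent reporter of the germ cell gene *Vasa* (*Ddx4*). The line was grown with serum and LIF, a cytokine that maintains pluripotency, on STO feeder cells, a fibroblast line inactivated with mitomycin C. The 4 *L3mbtl2*-KD samples were transfected with the siRNA Mm_L3mbtl2_4 and the 4 control samples with the non-silencing AllStars siRNA, and the methods call the samples of each group biological replicates. The methods describe the *L3mbtl2*-KD cells as *Vasa*-positive cells purified by fluorescence-activated cell sorting, and whether control cells for the arrays were sorted too is not settled there. All cells thus share the reporter and the feeder culture, and the siRNA and the sort may differ together between the groups, so that the effect of the one cannot be told apart from that of the other.

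Total RNA of each sample was labelled with Cy3 and hybridised to its own one-colour Agilent array, on which 43020 spots were not control spots. On the 8 arrays the 75th percentile of spot intensity lay between 791 and 1038, and 59.5 to 66.6% of spots were well above background, a call the scanner software makes for each spot. Levels below are log2 intensities minus the 75th percentile of the array (normalized log2 intensity), so that 0 is the level of a spot at that percentile. The number of arrays limits the precision. The arrays lay on 2 slides, each with 2 samples of each group, and control samples always took positions 1 and 3 of a slide and *L3mbtl2*-KD samples positions 2 and 4, so that siRNA and position cannot be told apart.

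L3MBTL2 belongs to a Polycomb repressive complex that keeps germ cell and other developmental genes silent in ESCs. The 7 genes do not form a known pathway, and their products act at different places of the cell. Pleiotrophin (*Ptn*) and annexin A1 (*Anxa1*) can act outside the cell as ligands, *Megf10*, *Pcdh18* and *Itga8* encode receptors and adhesion proteins of the cell surface, *Daam2* encodes a regulator of the actin skeleton in Wnt signalling, and *Dach1* encodes a nuclear regulator of transcription. Most are best known from the mesenchyme, nervous system, muscle or kidney of the embryo and not from pluripotent cells.

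The siRNA target was lower in the *L3mbtl2*-KD samples. *L3mbtl2* had normalized log2 intensities of 0.27, -0.18, -0.21 and -0.31 in control replicates 1 to 4 and of -1.45, -1.26, -1.58 and -1.73 in *L3mbtl2*-KD replicates 1 to 4. The groups did not overlap, and the log2 difference was -1.40 (standard error 0.15, adjusted p = 0.000945 in limma, lower in 4 of 4 samples). *Ddx4*, the gene behind the reporter, had a log2 difference of 2.83 (standard error 0.087, adjusted p = 4.88e-06 in limma), with all 4 *L3mbtl2*-KD samples above all controls. Since the *L3mbtl2*-KD cells were sorted for this reporter, a higher *Ddx4* signal was selected for, and the value is no measure of the siRNA's effect. Of 12 markers of pluripotent cells, such as *Pou5f1* and *Sox2*, 12 were well above background on every array. The limma fit called 0 of them, while 4 were lower and 0 higher at an unadjusted p under 0.05. Their median log2 difference was -0.25.

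Over the whole array, 13653 genes were tested, those with a probe that was well above background throughout one group or both. Calling a gene up- or down-regulated took a change of over 2-fold in any of its probes and an adjusted p below 0.05 in limma. By this rule 438 genes were down-regulated, 3.21% of those tested, and 340 were up-regulated, 2.49%. The balance turned with normexp correction (194 up, 159 down) and with quantile normalization (387 up, 366 down), both described further on. All 7 genes were among the 438, which follows from how they were chosen and carries no further weight. The 7 genes passed the filter on dim probes, 6 of them only through the control group, so that a lower signal in the *L3mbtl2*-KD group was a condition of entry for those 6. The median log2 difference over all genes, with one probe for each, was -0.011.

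**Figure D1:**
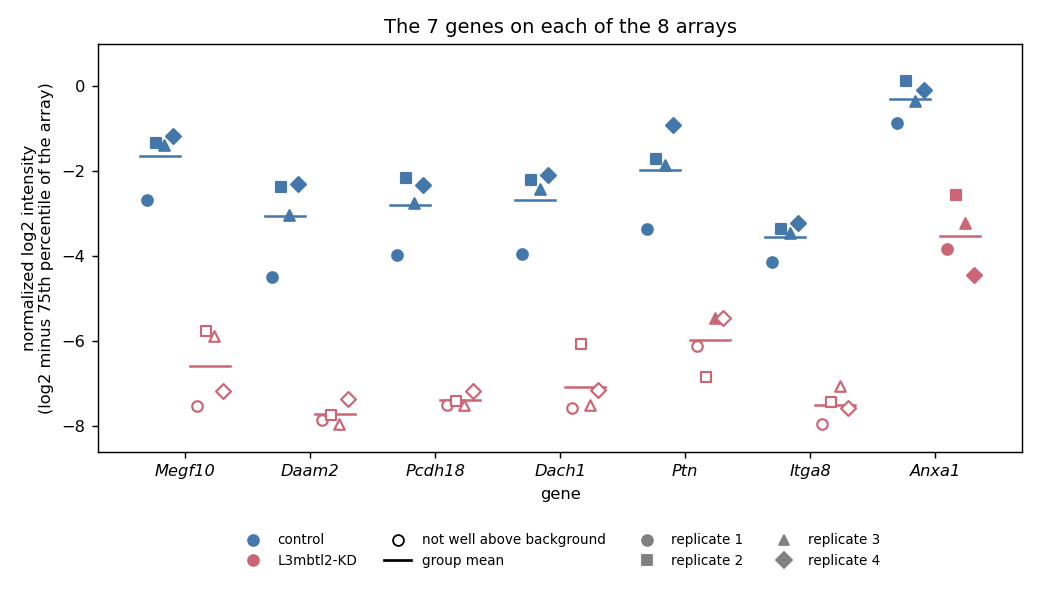
Normalized log2 intensity of the 7 genes on each of the 8 arrays (1 probe for each gene, the one with the highest mean signal), with filled markers where the spot was well above background and a line at the group mean. All 28 control values are filled, 5 of the 28 *L3mbtl2*-KD values are, and control replicate 1 is the lowest control for every gene.

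Of the secreted proteins, pleiotrophin is a heparin-binding growth factor that signals through the receptor phosphatase *Ptprz1*. *Ptn* (NM_008973) had normalized log2 intensities of -3.35, -1.72, -1.85 and -0.91 in control replicates 1 to 4 and of -6.11, -6.84, -5.46 and -5.44 in *L3mbtl2*-KD replicates 1 to 4. Control replicate 1 was lowest and control replicate 4 highest of the controls, and every *L3mbtl2*-KD sample lay below every control. The means were -1.95 ± 1.02 (SD, n = 4) and -5.96 ± 0.66 (SD, n = 4), a log2 difference of -4.01. All 4 control arrays and 1 *L3mbtl2*-KD array, that of replicate 3, were well above background. A second probe of *Ptn*, well above background on 4 control arrays and 0 *L3mbtl2*-KD arrays, had a log2 difference of -2.79, and its groups did not overlap either.

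Annexin A1 binds membrane phospholipids in the presence of calcium and, once released, acts on formyl peptide receptors and limits inflammation. *Anxa1* (NM_010730) had values of -0.85, 0.12, -0.35 and -0.089 in control replicates 1 to 4 and of -3.83, -2.55, -3.22 and -4.43 in *L3mbtl2*-KD replicates 1 to 4. It was the only one of the 7 genes well above background on all 8 arrays, so its difference alone was measured within the range of detected signal in both groups. The means were -0.29 ± 0.42 (SD, n = 4) and -3.51 ± 0.81 (SD, n = 4), and the log2 difference was -3.22. The *L3mbtl2*-KD samples spread over 1.88 log2 units, more than the 0.97 of the controls, with replicate 2 highest and replicate 4 lowest. The second, dimmer probe of *Anxa1*, which gave the gene its place in the ranking, had a log2 difference of -3.51 and was well above background on 4 control arrays and 1 *L3mbtl2*-KD array. Next in the ranking were *Cubn*, *Fst* and *Sema3c*, with -3.38, -3.34 and -3.33 by the probes that ranked them. By its brighter probe *Cubn* had -3.20, close to the -3.22 of *Anxa1*.

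*Megf10* encodes a cell-surface receptor with epidermal growth factor-like repeats that takes part in the engulfment of dying cells and in the growth of muscle progenitors. *Megf10* (NM_001001979) had values of -2.67, -1.34, -1.38 and -1.17 in control replicates 1 to 4 and of -7.52, -5.76, -5.87 and -7.18 in *L3mbtl2*-KD replicates 1 to 4. Control replicate 1 stood apart below the other controls, *L3mbtl2*-KD replicates 2 and 3 lay above replicates 1 and 4, and the groups were 3.09 log2 units apart at their nearest. The means were -1.64 ± 0.69 (SD, n = 4) and -6.58 ± 0.89 (SD, n = 4), with a log2 difference of -4.94. Since 0 of the 4 *L3mbtl2*-KD spots were well above background, this difference depends on how background was subtracted, and only a bound can be given. The bound sets the control mean against the lowest signal of any probe well above background on each *L3mbtl2*-KD array, or against the gene's own spot if brighter. *Megf10* was at least 14.3-fold lower by this measure. Bounds of this kind, here and below, hold only for the scanner's own background subtraction. They use the control mean, so a single control can lie nearer than the bound.

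*Pcdh18* encodes a protocadherin, a calcium-dependent adhesion protein of embryonic mesenchyme and the nervous system. *Pcdh18* (NM_130448) had values of -3.98, -2.15, -2.74 and -2.32 in control replicates 1 to 4 and of -7.50, -7.39, -7.51 and -7.16 in *L3mbtl2*-KD replicates 1 to 4. The controls spread widely, with replicate 1 lowest and replicate 2 highest, and the groups did not overlap. The *L3mbtl2*-KD values lay within 0.35 of each other. Since these spots were not well above background, that is no measure of the spread in expression. The means were -2.80 ± 0.82 (SD, n = 4) and -7.39 ± 0.16 (SD, n = 4), with a log2 difference of -4.59. With 4 control arrays and 0 *L3mbtl2*-KD arrays well above background, it was at least 6.42-fold lower.

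*Itga8* encodes the alpha 8 integrin chain, which pairs with *Itgb1*, binds nephronectin and is needed for kidney development. *Itga8* (NM_001001309) had values of -4.14, -3.36, -3.45 and -3.20 in control replicates 1 to 4 and of -7.96, -7.43, -7.06 and -7.57 in *L3mbtl2*-KD replicates 1 to 4. It varied least among the controls of the 7 genes, with a range of 0.94, and again replicate 1 was lowest. The means were -3.54 ± 0.42 (SD, n = 4) and -7.51 ± 0.37 (SD, n = 4), a log2 difference of -3.97. It was well above background on 4 control arrays and 0 *L3mbtl2*-KD arrays, and at least 3.84-fold lower.

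*Daam2* encodes a formin, a protein that nucleates actin filaments and binds Dishevelled in Wnt signalling. *Daam2* (NM_001008231) had values of -4.49, -2.36, -3.02 and -2.30 in control replicates 1 to 4 and of -7.85, -7.72, -7.95 and -7.36 in *L3mbtl2*-KD replicates 1 to 4. Control replicates 2 and 4 were nearly level at the top, control replicate 1 was lowest, and the *L3mbtl2*-KD samples formed a narrow group below. That narrow group is one of spots not well above background, and so no measure of the spread in expression. The means were -3.04 ± 1.02 (SD, n = 4) and -7.72 ± 0.26 (SD, n = 4), with a log2 difference of -4.68. It was well above background on 4 control arrays and 0 *L3mbtl2*-KD arrays, and at least 5.41-fold lower.

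*Dach1* encodes a nuclear protein of the dachshund family that works with other nuclear regulators in organ formation. *Dach1* (NM_007826) had values of -3.94, -2.20, -2.42 and -2.09 in control replicates 1 to 4 and of -7.57, -6.07, -7.49 and -7.15 in *L3mbtl2*-KD replicates 1 to 4. *L3mbtl2*-KD replicate 2 lay above its group and still below every control. The means were -2.66 ± 0.86 (SD, n = 4) and -7.07 ± 0.69 (SD, n = 4), a log2 difference of -4.41, and the gene was at least 7.04-fold lower, with 4 control arrays and 0 *L3mbtl2*-KD arrays well above background. A second probe was well above background on 3 control arrays and 0 *L3mbtl2*-KD arrays and so was not tested. Its log2 difference was -2.64 with groups that did not overlap, and by it *Dach1* was at least 1.30-fold lower.

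*Megf10* led the ranking with -4.94, *Daam2* with -4.68 and *Pcdh18* with -4.59 came next, followed by *Dach1* with -4.41. Of the genes set aside, *Dcn* (-4.26) and *Col3a1* (-4.07) lay between *Dach1* and *Ptn*, and *Thbs1* (-3.56) lay between *Itga8* and *Anxa1*. Neighbours in this order differed by less than the SD among controls of either gene, so the order itself is not settled by these arrays. The matrix genes set aside had a like pattern of detection. *Dcn* and *Col3a1* were well above background on 4 control arrays and 0 *L3mbtl2*-KD arrays, at least 12.1-fold and 7.81-fold lower, and *Thbs1* was so on 4 and 1. Just outside the ranking, *Sema3c* was at least 2.56-fold lower, and *Fst* and the brighter probe of *Cubn* were well above background on all arrays.

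The scanner's own error estimate shows how differently the groups were measured. Over the 28 control measurements of the 7 genes the estimated error was at most 12.3% of the intensity, and over the 28 *L3mbtl2*-KD measurements it reached 99.8%. The software called 28 of the control spots and 16 of the *L3mbtl2*-KD spots positive and significant, a weaker condition than well above background. For the 6 genes without *Anxa1*, the median pixel intensity of *L3mbtl2*-KD spots was 41.5 to 83.0, and the negative control spots of the arrays had medians of 42.0 to 52.0. These ranges overlap in part. Of these *L3mbtl2*-KD spots the software called 1 well above background and 12 positive and significant. How far below the detected range the spots not well above background lie was not measured.

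The size of these differences depended on the processing. The normexp alternative took median spot intensities and added an offset, so that its effect cannot be put down to background correction alone. With the normexp correction, which adds an offset of 50 to the intensities, the log2 difference was -1.99 for *Megf10*, -1.90 for *Ptn*, -1.48 for *Daam2*, -1.38 for *Pcdh18*, -1.35 for *Dach1* and -1.10 for *Itga8*. *Anxa1* had -2.31 and was then first in the order, not last. Each of the 7 genes was still lower by more than 2-fold. For *Megf10*, *Daam2*, *Pcdh18*, *Dach1* and *Itga8* these falls were smaller than the bounds given above for the same probes. Those bounds hold only for the scanner's own background subtraction. With quantile normalization and in the authors' own table of log2 values the differences lay close to those of the normalization used here.

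**Figure D2:**
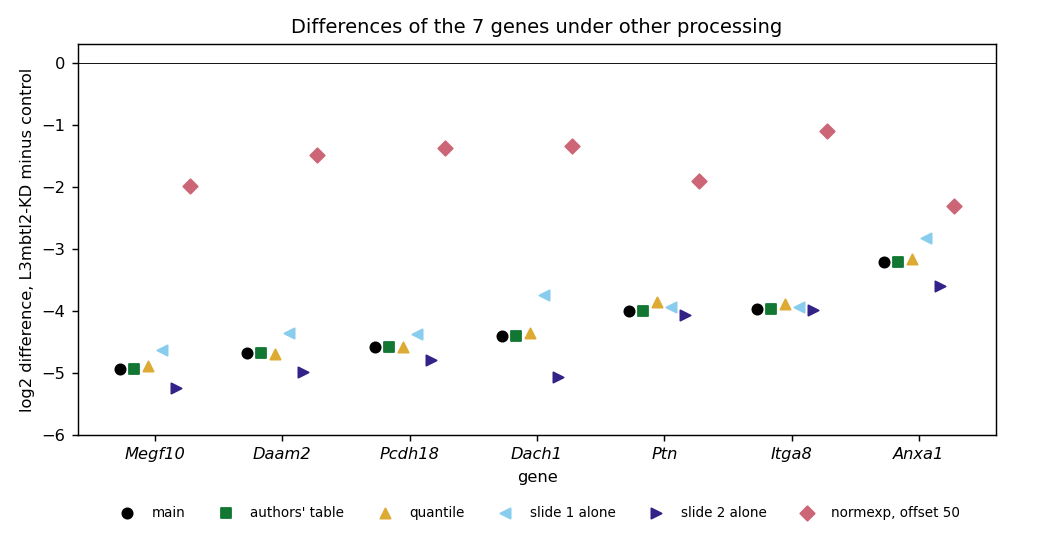
Log2 difference (*L3mbtl2*-KD minus control) of the 7 genes with the normalization used here, in the authors' table, with quantile normalization, on each slide alone and with normexp background correction (offset 50). The normexp values, from -2.31 for *Anxa1* to -1.10 for *Itga8*, lie nearer 0 than all others shown.

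Both slides showed the lower signal. On slide 1, which held replicates 1 and 2, the median log2 difference of the 7 genes was -3.94, and on slide 2, with replicates 3 and 4, it was -4.80. *Dach1* differed most between slides, with -3.75 and -5.06, and *Itga8* least, with -3.94 and -3.99. Taken by replicate number, the differences ran from -4.43 (replicate 2) to -6.01 (replicate 4) for *Megf10*, and from -2.76 (replicate 1) to -5.12 (replicate 2) for *Ptn*. Those of *Itga8* lay between -3.61 and -4.37.

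Control replicate 1 was the lowest control for all 7 genes. The highest control was replicate 4 for 5 of them and replicate 2 for the others, *Pcdh18* and *Anxa1*. Against the mean of the other controls, control replicate 1 had a median deviation of -1.57 over the 7 genes, -0.24 over the down-regulated genes and 0.00070 over all genes tested. The largest deficit was that of *Daam2* (-1.93) and the smallest that of *Anxa1* (-0.75). Control replicate 1 was the lowest control for 53.0% of the down-regulated genes and for 31.4% of all genes tested. Without it the median difference of the 7 genes was -4.83. Among *L3mbtl2*-KD samples no replicate was lowest throughout, since replicate 1 was lowest for 3 genes, replicate 3 for 2 and replicates 2 and 4 for 1 each. Only 5 of these 28 *L3mbtl2*-KD spots were well above background, 4 of them those of *Anxa1*. For the other genes this order is therefore mostly one of undetected spots and cannot be set against that of the controls.

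Markers of fibroblasts, the cell type of the feeder layer, moved in the same direction. Of 24 such genes 18 were tested and 10 were called down-regulated in limma (55.6%, against 3.21% of all genes). At an unadjusted p under 0.05, 12 were lower and 0 higher, and 17 of the 18 were lower, with a median log2 difference of -1.54 (-0.79 with normexp). *Dcn*, *Col3a1* and *Thbs1* of this list come from the same ranking as the 7 genes, and the list was written with earlier results of these data known, so its count is no independent support. Besides those 3, the called genes included *Col1a2* (log2 difference -2.81, standard error 0.44, adjusted p = 0.00439 in limma). *Tagln*, with the brightest probe of the list, had -0.58 (standard error 0.27, adjusted p = 0.173 in limma). *Col5a2*, *Lum*, *Postn*, *Prrx1* and *Fap* were not well above background on any array.

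The summed level of the 24 fibroblast markers, in units of the 75th percentile of the array, was 8.04, 15.7, 14.1 and 18.4 in control replicates 1 to 4 and 6.48, 6.56, 7.46 and 7.28 in *L3mbtl2*-KD replicates 1 to 4. Control replicate 1, the lowest control for the 7 genes, was thus also the lowest control by either sum, and it was the lowest control for 14 of the 18 tested markers. Over all lists of markers and relatives, the share of genes with control replicate 1 as the lowest control ran from 16.7% (pluripotent markers) to 77.8% (fibroblast markers). In RNA from a whole sample, fewer cells of a type and less RNA per cell cannot be told apart. A sort for the reporter, which feeder cells do not carry, would remove such cells from the *L3mbtl2*-KD samples, and whether the controls were sorted is not settled. The part of feeder cells in the fall of the 7 genes was not tested.

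Markers of primitive endoderm, a cell type that ESC cultures can form, were lower as well. Of 12 genes 11 were tested, 8 were called down-regulated in limma (72.7%, against 3.21% of all genes), 10 were lower and 0 higher at an unadjusted p under 0.05, and the median log2 difference was -2.04 (-0.95 with normexp). *Lama1*, with the brightest probe, had -2.18 (standard error 0.22, adjusted p = 0.00063 in limma), and *Dab2*, an endocytic adaptor, had -2.53 (standard error 0.33, adjusted p = 0.00206 in limma), less than 2-fold with normexp (-0.95). *Cubn*, also called, is the first gene outside the ranking that gave the 7 genes, so this count is no independent support either. *Afp* was not well above background on any array. The summed level was 19.4, 16.4, 16.6 and 22.2 in control replicates 1 to 4 and 5.09, 6.70, 5.03 and 3.89 in *L3mbtl2*-KD replicates 1 to 4. Here control replicate 1 was not the lowest, and it was the lowest control for 3 of 11 genes. The part of these cells in the fall of the 7 genes was not tested either.

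**Figure D3:**
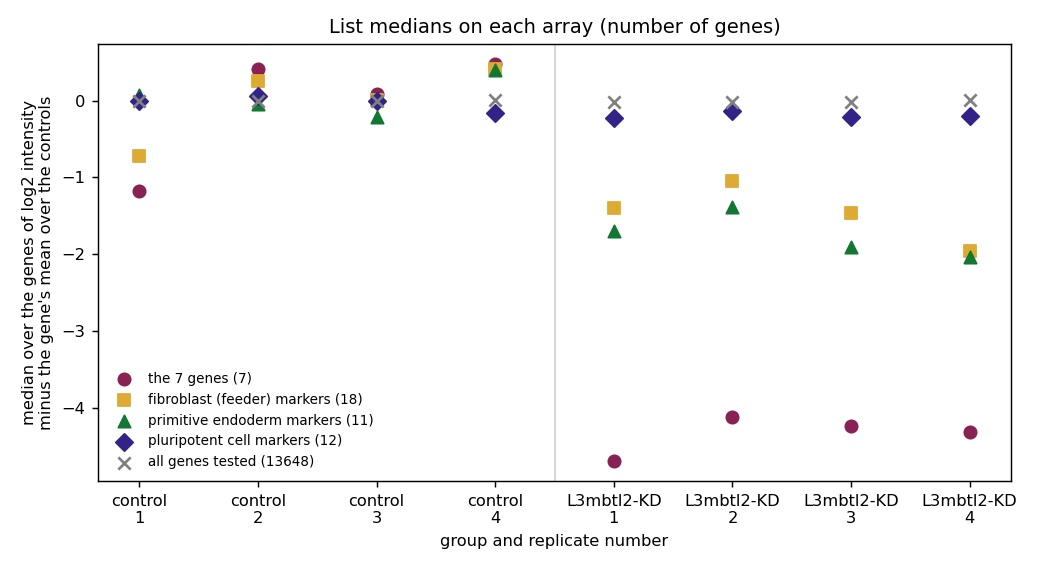
For each array, the median over the genes of a list of the normalized log2 intensity minus the gene's mean over the 4 controls, for the 7 genes, markers of fibroblasts, primitive endoderm and pluripotent cells, and 13648 of the genes tested. Control replicate 1 is at -1.18 for the 7 genes and -0.72 for the fibroblast markers, against 0.073 for primitive endoderm and 0.0017 for pluripotent cells.

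The other marker lists held fewer calls, and shares of called genes in them stand against 3.21% down-regulated over all genes. The summed level of the pluripotent markers was 343 to 364 in controls and 325 to 365 in *L3mbtl2*-KD samples, with the brightest probe that of *Dppa5a*. Without *Dppa5a* it was 194 to 215 in controls and 172 to 184 in *L3mbtl2*-KD samples, so that every *L3mbtl2*-KD sample lay below every control. Of the trophectoderm markers 9 were tested, limma called 0, and 3 were lower and 0 higher at an unadjusted p under 0.05. All 9 had a difference below 0, with a median of -0.48 (-0.25 with normexp). *Tfap2c*, with the brightest probe, had -0.024, the smallest of the list, and *Elf5* was not well above background on any array. The neural list had 7 genes tested and 1 called down-regulated (14.3%), *Zic1*, through its dimmer probe (-3.07), while the brighter probe had 0.29. Of 7 mesoderm markers tested 2 were down-regulated (28.6%), *Meox1* (-3.15, standard error 0.31, adjusted p = 0.00066 in limma) and *Foxc2* (-1.17, standard error 0.27, adjusted p = 0.021 in limma). The call of *Foxc2* was lost with normexp (-0.43), without the filter on dim probes, and when any of *L3mbtl2*-KD replicates 1 (-0.91) and 4 or control replicates 2, 3 and 4 was left out (adjusted p from 0.0229 to 0.0562 in limma). The muscle progenitor list, of interest because *Megf10* is known from such cells, had 3 genes tested and 1 of them down-regulated (33.3%), with *Pax3* lower (-1.23, adjusted p = 0.0187 in limma) and *Msc* higher (1.39, adjusted p = 0.0318 in limma). Both changed less than 2-fold with normexp (-0.40 and 0.76). The call of *Pax3* was also lost without control replicate 3 (adjusted p = 0.0575 in limma), and that of *Msc* without the filter on dim probes and when any of *L3mbtl2*-KD replicates 1, 3 and 4 or control replicates 2, 3 and 4 was left out (adjusted p from 0.0504 to 0.0826 in limma). With all samples and the replicate number as a block, adjusted p in limma was 0.00444 for *Foxc2*, 0.00996 for *Pax3* and 0.00358 for *Msc*. *Myf5*, *Myod1* and *Myog* were not well above background on any array, and *Pax7* was so on 3 control arrays and 0 *L3mbtl2*-KD arrays.

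The relatives and partners of the 7 genes, none of which was among the first 10 of the ranking, were mostly not called. They comprised 112 genes in 7 lists, of which 81 were tested. The limma fit called 6 of them down-regulated (7.41%, against 3.21% of all genes) and 1 up-regulated (1.23%, against 2.49%), their median log2 difference was -0.21, and 62 were lower. Of the nearest relatives that were tested, *Megf11* had a log2 difference of 0.058, *Daam1* 0.098, *Pcdh19* 0.24, the pleiotrophin homolog *Mdk* -0.18 and *Anxa2* -0.24, with adjusted p in limma from 0.293 to 0.761. *Dach2*, the paralog of *Dach1*, was not well above background on any array by its brightest probe, and *Pcdh10* was so on 2 control arrays and 0 *L3mbtl2*-KD arrays.

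Among relatives of *Megf10* and other genes of dying-cell clearance, 14 were tested, 2 fell (14.3%, against 3.21% of all genes) and 1 rose, with a median of -0.36. *Axl*, a receptor tyrosine kinase that recognises dying cells through bridging ligands, fell by 1.74 on the log2 scale (standard error 0.20, adjusted p = 0.00122 in limma, lower in 4 of 4 samples). *Pros1*, a bridging ligand of receptors related to *Axl*, fell by 1.13 (standard error 0.19, adjusted p = 0.00596 in limma). *Stab2*, a scavenger receptor, rose by 2.10 (standard error 0.14, adjusted p = 0.000137 in limma). *Mfge8*, the brightest of those not called, had -0.34 (adjusted p = 0.375 in limma, and 0.00932 with the replicate number as a block). *Gulp1*, an adaptor that binds engulfment receptors, had -0.59 (standard error 0.099, adjusted p = 0.00583 in limma), past the p threshold and short of the 2-fold one. The call of *Pros1* was lost without *L3mbtl2*-KD replicate 4 (-0.99), and *Axl* (-0.82) and *Pros1* (-0.84) changed less than 2-fold with normexp.

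The lists of annexins and of integrins held the other calls. Of 12 annexins, their S100 partners and receptors tested, 3 fell (25%, against 3.21% of all genes), *Anxa3* (-1.66, standard error 0.23, adjusted p = 0.00262 in limma), *Anxa8* (-1.60, standard error 0.22, adjusted p = 0.00264 in limma) and *Anxa5* (-1.02, standard error 0.30, adjusted p = 0.0478 in limma), and the median was -0.39. The groups of *Anxa5* overlapped, and its call was lost when any of *L3mbtl2*-KD replicates 1, 2 and 4 or control replicates 2, 3 and 4 was left out (adjusted p from 0.0591 to 0.123 in limma). With all samples and the replicate number as a block, its adjusted p was 0.00294 in limma. *Anxa5* (-0.98) and *Anxa8* (-0.96) changed less than 2-fold with normexp. *S100a11*, the calcium-binding partner of annexin A1, had -0.21 (adjusted p = 0.502 in limma, and 0.0274 with the block), and *Fpr1*, a receptor for annexin A1, was not well above background on any array. Of 13 integrin chains and ligands tested 1 fell (7.69%), *Itga9* (-1.09, standard error 0.12, adjusted p = 0.00111 in limma), and the median was -0.28. Without control replicate 1 (-0.99) and with quantile normalization (-0.996) *Itga9* changed less than 2-fold, as it did with normexp (-0.76). *Itgb1*, with which the alpha 8 chain pairs, had -0.25 (adjusted p = 0.229 in limma, and 0.0280 with the block), *Fn1*, the brightest gene of the list and a ligand of that pair, had -0.88 (adjusted p = 0.00393 in limma), and *Npnt*, another ligand, was well above background on 1 control array and 0 *L3mbtl2*-KD arrays.

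In the remaining lists limma called 0 genes, though some passed the p threshold with changes short of 2-fold. Of 20 formins and planar-polarity partners of *Daam2*, 6 were lower and 1 higher at an unadjusted p under 0.05, with *Prickle1* at -0.83 (adjusted p = 0.0154 in limma), *Wnt5a* at -0.82 (0.0173) and *Fmnl3* at 0.64 (0.00453), and a median of -0.11. With normexp *Wnt5a* had -0.13 (adjusted p = 0.386 in limma). Of 9 relatives and partners of *Dach1*, 2 were lower and 2 higher by that measure, with *Six4* at 0.57 (adjusted p = 0.0224 in limma), and the median was -0.075. Of 8 genes in the pleiotrophin list 3 were lower and 0 higher, with *Sdc3* at -1.03 (adjusted p = 0.0808 in limma), *Sdc2* at -0.79 (0.00375) and *Ptprz1* at -0.44 (adjusted p = 0.0942 in limma), and a median of -0.26. Of 5 protocadherin-list genes 1 was lower, *Pcdh1* at -0.40 (adjusted p = 0.0578 in limma, and 0.0154 with the block), and the median was -0.0042, with the opposite sign under normexp (0.0022) and quantile normalization (0.031).

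**Figure D4:**
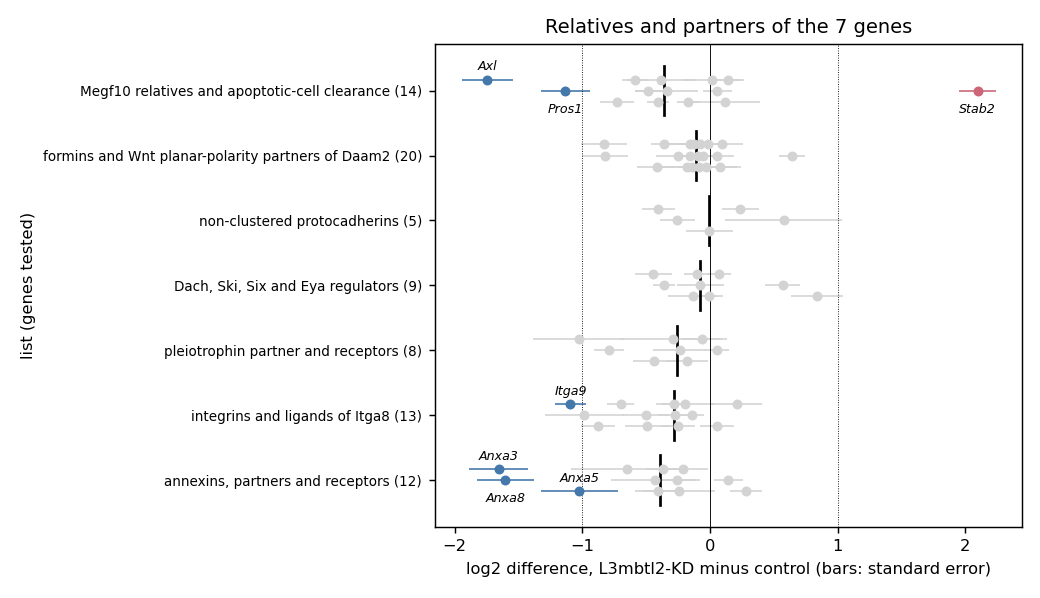
Log2 difference (*L3mbtl2*-KD minus control) of each relative or partner tested, 1 probe for each gene, with limma's standard error as bars, called genes in colour and named, a black mark at the median of the list and dotted lines at 2-fold. The 6 called down-regulated genes lie between -1.74 and -1.02, and *Stab2* lies at 2.10.

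The 7 genes lie on 7 different chromosomes. The nearest gene with a tested probe on each side, in RefSeq order, gave 14 neighbours, with 1 to 34 genes without a tested probe lying between, so that none is directly adjacent. Limma called 0 of them down-regulated and 1 up-regulated, against 3.21% and 2.49% of all genes, and with so few neighbours a count of 0 is close to that share. At an unadjusted p under 0.05, 2 were lower and 3 higher, and the median log2 difference was -0.028, with the opposite sign under quantile normalization (0.0027). The lowest was *Creb3l2*, a neighbour of *Ptn* with 3 genes between, with -0.86 (standard error 0.19, adjusted p = 0.0179 in limma), and it was the 1 neighbour called down-regulated without control replicate 1. *1700018B24Rik*, a neighbour of *Pcdh18* with 9 genes between, rose by 2.49 (standard error 0.17, adjusted p = 0.000144 in limma), from a control mean of -4.08 to an *L3mbtl2*-KD mean of -1.59.

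Several of the 7 genes had profiles close to one another. Likeness was measured as the mean absolute difference over the 8 arrays between profiles centred on their own means, among 12985 other named genes well above background on all controls. *Daam2* and *Pcdh18* were each other's nearest, at 0.12 log2 units, where the median over all genes was 2.33 for *Daam2*. Next for both were *Col3a1* (0.30 and 0.28) and *Dach1* (0.31 and 0.30), and nearest to *Dach1* was *Col3a1* (0.22). *Megf10* was nearest to *Dach1* (0.48), *Dcn* (0.53) and *Pcdh18* (0.54). *Ptn* was nearest to *Asb4* (0.38), *Itga8* (0.44) and *Daam2* (0.47), and *Itga8* to *Cyp1b1* (0.37), *Pcdh18* (0.39) and *Tgfb2* (0.40). *Anxa1* had none of the other 6 among its nearest 3, which were *Col1a2* (0.28), *Meox1* (0.29) and *Hoxc6* (0.32). Genes that fell strongly on every array are near one another by this measure whatever they do, so the order is a description. For 5 of the 7 genes, *Daam2* and *Pcdh18* among them, 0 *L3mbtl2*-KD spots were well above background. Likeness over those arrays is thus not likeness of detected signal.

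The DNA before the start sites is shown so that the promoters can be read side by side. That the 7 genes fell together follows from how they were chosen and says nothing of a shared promoter feature. Of the 7 genes 6 are in the RefSeq promoter table of mouse build GRCm38.p6, with 250 bases before and 50 after the start. Capitals mark matches, on either strand, to the motifs searched. Windows of *Pcdh18* (chr3:49757267-49757566), *Itga8* (chr2:12301895-12302194), *Daam2* (chr17:49564288-49564587) and *Anxa1* (chr19:20390622-20390921) follow, all on the minus strand and written 5′ to 3′.
Pcdh18: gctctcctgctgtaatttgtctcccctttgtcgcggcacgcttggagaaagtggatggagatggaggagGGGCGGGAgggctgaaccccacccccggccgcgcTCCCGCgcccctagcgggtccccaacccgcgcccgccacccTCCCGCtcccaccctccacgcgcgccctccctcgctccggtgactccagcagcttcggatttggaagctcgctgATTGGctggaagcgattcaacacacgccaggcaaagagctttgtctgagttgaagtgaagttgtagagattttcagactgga
Itga8: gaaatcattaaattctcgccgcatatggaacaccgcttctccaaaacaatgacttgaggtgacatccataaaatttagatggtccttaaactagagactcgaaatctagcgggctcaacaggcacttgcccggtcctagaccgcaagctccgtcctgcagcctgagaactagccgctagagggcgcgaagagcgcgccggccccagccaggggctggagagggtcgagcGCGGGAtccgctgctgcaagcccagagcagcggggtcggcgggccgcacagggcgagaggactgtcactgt
Daam2: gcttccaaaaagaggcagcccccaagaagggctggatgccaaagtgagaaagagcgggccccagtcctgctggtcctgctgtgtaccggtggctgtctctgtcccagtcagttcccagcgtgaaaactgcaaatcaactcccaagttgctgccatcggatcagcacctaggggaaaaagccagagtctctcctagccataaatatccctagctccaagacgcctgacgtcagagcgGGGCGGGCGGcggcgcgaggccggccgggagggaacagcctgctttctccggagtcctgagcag
Anxa1: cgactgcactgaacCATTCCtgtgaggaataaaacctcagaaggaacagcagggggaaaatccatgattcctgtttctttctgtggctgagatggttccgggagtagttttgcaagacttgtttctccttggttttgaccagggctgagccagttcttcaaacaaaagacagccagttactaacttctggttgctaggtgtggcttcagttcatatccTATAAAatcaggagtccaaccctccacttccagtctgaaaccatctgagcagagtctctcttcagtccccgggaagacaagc

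The motifs searched were an E-box (CACGTG, in 7.15% of all 32851 windows of the table), a T-box core (GGTGTGA, 3.98%), E2F (GCGGGA, 20%), AP-1 (TGANTCA, 7.81%), TEAD (GGAATG, 14.7%), a CCAAT box (CCAAT, 37.4%), a GC box (GGGCGG, 35.7%) and a TATA box (TATAAA, 13.6%). *Pcdh18* held 3 matches to E2F, 1 of which overlapped its GC box, and 1 CCAAT box. *Itga8* held 1 match to E2F, and *Daam2* held 2 GC boxes that overlapped each other. *Anxa1* held a TATA box that began at -32 from the start and 1 match to TEAD. *Dach1* held 1 match to TEAD and *Ptn* 1 CCAAT box, and no window of the 6 genes held the E-box, T-box or AP-1 letters. A match is a description of letters and not a bound site.

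The 6 promoters shared no common base composition. *Pcdh18* and *Itga8* held 23 CpG dinucleotides each, *Daam2* held 15, *Dach1* 13, *Ptn* 6 and *Anxa1* 3, where the median over all windows was 7 and the quartiles were 3 and 20. The highest GC content was that of *Pcdh18* (63.0%) and the lowest that of *Anxa1* (47.3%), with a median of 52.7% over all windows.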

How the data were processed

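Gene expression was measured in 8 samples of VV3 ESCs, 4 of each group. The authors deposited the intensity of each spot, background-subtracted by the scanner software and not normalized between arrays, and their own log2 values, made per the methods with a 75 percentile shift. Each column of this deposited log2 table has a median near 0 (-0.059 to 0.079). Recomputed from the intensities by that shift, with each probe's median over the arrays subtracted, the values correlated with it at 0.999 or more on every array.

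The deposited intensities were put on the log2 scale and the 75th percentile of the array was subtracted. Spots that were controls or carried an outlier flag were dropped, replicate spots were averaged within a probe, and RefSeq accessions (GRCm38.p6) gave gene symbols for 26055 of the 39429 probes. The 23525 probes well above background throughout a group, of which 85 lacked a value on some array, were fitted by limma 3.58.1 (lmFit and eBayes) under R 4.3.3. Adjusted p follow Benjamini and Hochberg over all of these probes. One probe stands for a gene, the one with the highest mean signal. Levels, likeness, neighbours and promoters were computed in Python 3.11.15 with pandas 2.3.3.

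The 7 genes and all gene lists were chosen with earlier results of these data known. Genes named are the 7 genes, *L3mbtl2*, *Ddx4*, the 3 matrix genes and the next 3 of the ranking, and the nearest relatives. From each family list they are all called genes up to 5, otherwise the 5 with the largest change, and the brightest not called. Added to these are called neighbours, the 3 genes most like each of the 7, and from each marker list the brightest gene, up to 4 called genes and those not above background. Not every gene under the rule is named, and 1 is not reported here. Outside the rule, *Creb3l2*, *Gulp1*, *Fpr1*, *Pax7*, *Pcdh17*, *Pou5f1*, *Sox2* and *Tnc* were chosen after their values were seen.

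Both groups carry replicate numbers 1 to 4. How a sample deviated from its group mean correlated at 0.377 to 0.582 with the sample of the same number and at -0.437 to 0.247 with those of other numbers, so by the values the numbers pair the samples. Samples of the same number also lay side by side on a slide, so number and place cannot be told apart. The main fit, and the fits with a sample left out, took no account of the pairing. Alternatives were normexp correction of median spot intensities (offset 50), quantile normalization, the authors' table, other filters on dim probes, a block for the slide or for the replicate number, a trend of variance with intensity, the legends' one-way test, a 1.5-fold threshold, the mean of all probes, each slide alone and leaving out each sample.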

Additional observations from a re-analysis of the deposited data

Results flagged for a closer look

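A single sample stood far off from its group in 11 of the 176 groups examined, each of 4 samples: its gap to the nearest other sample took up a large share of the group's range (Dixon's ratio). Chance gives this in about 1 in 20 groups, or 8.8 here, so the number is close to what chance gives. Of the 7 genes, *Megf10* was low in control replicate 1 (ratio 0.857), at -2.67 where the other controls lay between -1.38 and -1.17. Without that sample its log2 difference was -5.29. Control replicate 1 was also low for *Anxa3* (0.957), *Anxa5* (0.86) and *Tagln* (0.86). In other controls, *Rhoa* was high in replicate 2 (0.849) and *Six5* low in replicate 3 (0.98). Among *L3mbtl2*-KD samples, replicate 1 was low for *Six2* (0.885) and *Zic1* (0.844) and high for *Dab2* (0.903) and *Msc* (0.868), and replicate 4 was low for *Diaph3* (0.851).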

How the results depend on the processing

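Leaving out each sample in turn gave 296 to 371 up-regulated genes, 354 to 500 down-regulated genes, 4 to 6 down-regulated and 1 to 1 up-regulated relatives and partners, 0 to 1 down-regulated neighbours (1, *Creb3l2*, without control replicate 1) and a median log2 difference of the 7 genes from -4.83 to -4.21. With normexp correction 194 genes were up-regulated and 159 down-regulated, so that 55.0% of called genes were up-regulated against 43.7% without it. By normexp 1 relative was down-regulated, *Anxa3*, and the median of the 7 genes was -1.48. The offset of 50 brings dim spots together by construction. Quantile normalization gave 387 up-regulated and 366 down-regulated genes, 51.4% up-regulated. When a probe had to be well above background on all 8 arrays, 290 genes were called down-regulated, from fewer probes tested, and of the 7 genes only *Anxa1* could be called. With a 1.5-fold threshold 700 genes were up-regulated and 1014 down-regulated, with 13 relatives down, 3 up and 1 neighbour down. Slide 1 alone, with 2 samples a group, gave 0 up-regulated and 0 down-regulated genes in limma and 0 relatives in either direction, while 319 genes were higher and 385 lower by over 2-fold with an unadjusted p below 0.05. Slide 2 alone, also with 2 samples a group, gave 347 up-regulated and 419 down-regulated genes, with 6 relatives down and 1 up. With the replicate number as a block 358 genes were up-regulated and 469 down-regulated, 11 named genes came under an adjusted p of 0.05 (*Itgb1*, *S100a11*, *Mfge8*, *Vangl1*, *Pcdh1*, *Eya2*, *Sdc4*, *Dppa5a*, *Sox3*, *Zic1* and *Des*, each by its brightest probe and less than 2-fold), and the paired fit changed no call of a relative or neighbour. Without the filter on dim probes *Anxa5*, *Foxc2* and *Msc* were not called, while *Dach2*, *Pcdh17* and *Tnc* were called down-regulated, each not well above background on any array by its brightest probe. Of 54 named genes tested, 25 had an adjusted p below 0.05 in limma, and 0 of these 25 changed direction in any alternative run for them. Among the others signs did change, as for *Tfap2c* on slide 2 alone (0.093, against -0.024). Of 19 genes compared by their differences alone, the 7 genes and those of the ranking and of like profile, 0 changed sign in any alternative run for them. For single genes other than the 7, these alternatives were applied after the data had been seen. Signal over background limits the sizes of 6 of the 7 differences.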
